A study of Homo sapiens with 6 samples.

Results

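The genes described here are the transcripts encoded by the mitochondrial genome and the nuclear genes whose products transcribe, replicate, process and degrade them. They were chosen by symbol, as every gene with a symbol beginning with MT- and 28 listed machinery symbols. The rule uses no measured value, but it was set with earlier results of these data known. Of the 29483 genes in the table, 43 met the rule: 16 mitochondrially encoded transcripts and 27 machinery genes. The encoded transcripts were the 13 mRNAs, the 2 rRNAs and 1 of the 22 tRNA genes (*MT-TP*) among the 37 genes annotated on the mitochondrial genome. The other tRNAs and *PPARGC1A* were not analysed here. All 43 genes had a mean of at least 0.5 FPKM (reads scaled by the exon length of the gene and by the total reads of the library) and were tested.

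RNA was sequenced from HK-2 cells, an immortalized line of human renal proximal tubular epithelium, in 6 libraries. For 7 days all cells grew in medium with 25 mM glucose, termed HG. The control group (3 libraries) stayed in HG, and the case group (3 libraries) was given 10 μM TEPP-46, an activator of pyruvate kinase M2 tetramers, for 1 day more in HG. Both groups are therefore hyperglycemic, and no cells outside HG enter the comparison. As recovered from the FPKM values, control replicates 1, 2 and 3 held 18634891, 17924033 and 17378710 reads, and case replicates 1, 2 and 3 held 16711934, 16047243 and 15363254 reads. These are reads assigned to genes, and each case library held fewer of them than each control library. In the study's read statistics, control replicate 3 and case replicate 1 had the highest shares of reads with adapter sequence and with unknown bases. The part of this difference in the results below was not tested. The study describes the replicates as independent and separately treated, and the p-values measure the spread between these libraries.

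The labelled cell type was compared with its markers. None of 8 proximal tubule receptors, transporters and brush border enzymes (*LRP2*, *CUBN*, *SLC34A1*, *SLC5A2*, *SLC5A1*, *AQP1*, *ANPEP* and *GGT1*) reached a mean of 0.5 FPKM, and their summed level was between 0.238 and 0.493 FPKM in each library. The megalin gene *LRP2* was at 0 in 5 of the 6 libraries. Of 7 genes of kidney and cultured epithelium, 5 reached that mean, and the kidney lineage factors *PAX8* (0.065 to 0.194 FPKM) and *PAX2* (0 to 0.034 FPKM) did not. The keratin gene *KRT18* was between 158 and 202 FPKM and the epithelial adhesion gene *EPCAM* between 12.7 and 14.6 FPKM, both with overlapping groups. The keratin gene *KRT8* was at 356, 342 and 335 FPKM in the control group and 302, 246 and 266 FPKM in the case group, lower in every case library (log2 fold change -0.27, limma adjusted p = 0.125). The cells are therefore called HK-2 cells here, with no further statement on their segment. The mesenchymal filament gene *VIM* was at 91.1, 96.1 and 97.1 FPKM in the control group and 150, 119 and 162 FPKM in the case group. The epithelial cadherin gene *CDH1* was at 3.34, 3.50 and 3.40 FPKM in the control group and 1.83, 2.32 and 2.00 FPKM in the case group. *VIM* and *CDH1* did not overlap between the groups (log2 fold changes of 0.66 and -0.64, limma adjusted p of 0.0204 and 0.0156), and their part in the results below was not tested. The podocyte gene *NPHS1* and the endothelial gene *PECAM1* were at or below 0.119 FPKM in every library.

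The human mitochondrial genome is a small circle that is transcribed from both strands into long precursors. These are cut, mostly at the tRNAs, into rRNAs, tRNAs and mRNAs, and the mRNAs encode core subunits of respiratory complexes I, III, IV and V. Every protein that copies, transcribes or processes this genome is encoded in the nucleus. Proximal tubule cells in the kidney are rich in mitochondria and depend on oxidative phosphorylation for reabsorption.

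Expression of the mitochondrial genome was compared between the case and control groups by limma on log2 FPKM after scaling between libraries, and P-values were adjusted over all 13599 tested genes. Of the 16 encoded transcripts, 10 were upregulated and none was downregulated at an adjusted p of at most 0.05. Over all tested genes, 998 (7.34%) were upregulated and 794 (5.84%) were downregulated at the same threshold. With TPM scaling, which moved the median of all tested genes to -0.19, these numbers were 383 and 2387, and 8 encoded transcripts were upregulated. The upregulated transcripts encode subunits of complex I (*MT-ND1*, *MT-ND2*, *MT-ND4* and *MT-ND6*), cytochrome b of complex III (*MT-CYB*), the 3 subunits of complex IV (*MT-CO1*, *MT-CO2* and *MT-CO3*), a subunit of ATP synthase (*MT-ATP6*) and the small rRNA (*MT-RNR1*). Their log2 fold changes were between 0.45 (*MT-CO1*) and 0.75 (*MT-RNR1*). At an unadjusted p under 0.05, 11 encoded transcripts were higher and none was lower in the case group, against 16.8% and 16.2% of all tested genes. The values of 11 transcripts did not overlap between the groups, all with the case group higher, where 19.5% of all tested genes were higher and 20.4% were lower without overlap. The median log2 fold change was 0.52 over the encoded transcripts and -0.00 over all tested genes. The encoded median was 0.32 with TPM scaling, 0.34 when gene length was corrected for and 0.048 with quantile normalization, which gives the highest-ranked genes of every library equal values by construction. FPKM are relative values and do not measure RNA per cell. In RNA from whole cultures, more mitochondrial RNA per cell, less nuclear-encoded RNA per cell and a shift towards cells rich in mitochondrial RNA cannot be told apart.

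The count of upregulated encoded transcripts changed when single libraries were left out. Without control replicate 1, control replicate 2 or case replicate 3 it was 0, and without control replicate 3 it was 2, while over all tested genes the upregulated number fell to 73, 56, 106 and 58 in the same order. In those 4 fits the encoded transcripts higher at an unadjusted p under 0.05 numbered 10, 10, 11 and 12, and in either direction 3227, 3036, 3370 and 3322 of the 13599 tested genes were at such a p. Without the filter on low values, which raised the tested genes to 27922, no encoded transcript passed, and the smallest adjusted p was 0.0920. Quantile normalization left 3 encoded transcripts, with 873 genes upregulated and 895 downregulated in all, and a correction for gene length left 5, with 921 and 614 in all.

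The encoded transcripts made up 11.3%, 11.2% and 11.3% of the summed FPKM in control replicates 1, 2 and 3, and 13.2%, 14.7% and 13.6% in case replicates 1, 2 and 3. As a share of reads, the control libraries had 3.36%, 3.32% and 3.37% and the case libraries had 4.27%, 4.65% and 4.43%. All case libraries were above all control libraries in both measures, and case replicate 2 was the highest. The mRNAs alone held 7.95% ± 0.16 (SD, n = 3) of the summed FPKM of control libraries and 10.2% ± 0.69 (SD, n = 3) of that of case libraries. Among the 20 genes with the highest FPKM, 9 were mitochondrially encoded in each control library and 11, 12 and 11 in the case libraries.

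**Figure D1:**
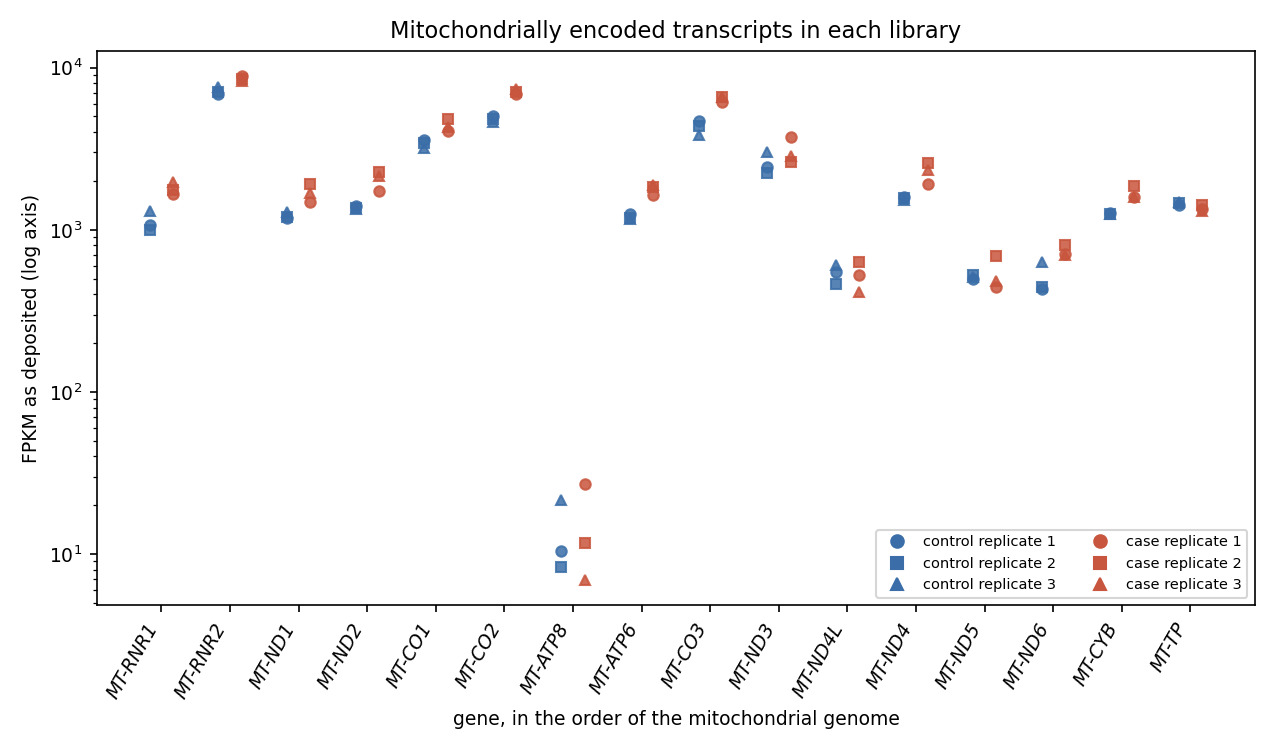
FPKM as deposited (log axis) of the 16 mitochondrially encoded transcripts in the 3 control libraries (blue) and the 3 case libraries (red), with 1 point per library and genes in genome order. *MT-RNR2* is the highest in every library, *MT-ATP8* stands far below the others, and 11 transcripts have every case point above every control point.

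The complex IV mRNAs were the most abundant mRNAs. *MT-CO2*, the copper-binding subunit that accepts electrons from cytochrome c (chrM:7586-8269, heavy-strand transcript), was at 5032, 4846 and 4641 FPKM in control replicates 1, 2 and 3 and at 6856, 7102 and 7359 FPKM in case replicates 1, 2 and 3. The groups were far apart and tight, and its log2 fold change was 0.63 (SE 0.09, limma adjusted p = 0.0102). *MT-CO3* (chrM:9207-9990), a core subunit beside the catalytic site, was at 4666, 4372 and 3866 FPKM in the control group and at 6108, 6617 and 6616 FPKM in the case group, a log2 fold change of 0.66 (SE 0.10, limma adjusted p = 0.0127). *MT-CO1* (chrM:5904-7445), the catalytic subunit, was at 3574, 3437 and 3181 FPKM and at 4064, 4836 and 4327 FPKM, respectively. Its lowest case library, replicate 1, was above the highest control library, and its log2 fold change was 0.45 (SE 0.09, limma adjusted p = 0.0238). *MT-CO1* did not pass with a replicate block, with TPM scaling or when gene length was corrected for.

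For ATP synthase, *MT-ATP6* (chrM:8527-9207), a subunit of the proton channel, was at 1251, 1179 and 1171 FPKM in the control group and at 1640, 1830 and 1879 FPKM in the case group. It had the smallest adjusted p among the 43 genes (log2 fold change 0.65, SE 0.08, limma adjusted p = 0.00811). *MT-ATP8* (chrM:8366-8572), the other subunit, was at 10.4, 8.36 and 21.7 FPKM and at 26.9, 11.7 and 6.92 FPKM. The groups overlapped fully, and with 22 to 93 reads per library its log2 fold change of 0.15 had a 95% confidence interval from -1.03 to 1.32, which includes the value of *MT-ATP6*.

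Both subunits are read from 1 bicistronic mRNA, yet the control mean per length was 13.5 ± 7.18 FPKM for *MT-ATP8* and 1200 ± 44.1 FPKM for *MT-ATP6* (SD, n = 3). The genes share bases. *MT-ATP8* has 207 bases, of which the last 46 are also the start of *MT-ATP6*. Its sequence in GRCh38 (chrM:8366-8572, plus strand) is shown because fragments that reach the shared bases, in capitals, belong to both genes.
MT-ATP8: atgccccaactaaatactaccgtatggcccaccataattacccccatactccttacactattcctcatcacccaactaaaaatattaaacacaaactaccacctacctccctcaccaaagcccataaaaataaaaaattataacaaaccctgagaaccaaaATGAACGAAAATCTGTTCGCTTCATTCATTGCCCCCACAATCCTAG
How fragments over both genes were counted is not given in the sources used here, and the effect of the shared bases on the level of *MT-ATP8* was not tested.

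Complex I has the most mitochondrial subunits, and 4 of its 7 mRNAs were upregulated. *MT-ND2* (chrM:4470-5511), a proton-pumping subunit of the membrane arm, was at 1405, 1372 and 1345 FPKM in the control group and at 1744, 2279 and 2146 FPKM in the case group, a log2 fold change of 0.65 (SE 0.10, limma adjusted p = 0.0127). *MT-ND4* (chrM:10760-12137), another pumping subunit, was at 1589, 1570 and 1522 FPKM and at 1919, 2596 and 2332 FPKM, a log2 fold change of 0.61 (SE 0.10, limma adjusted p = 0.0150). In both, case replicate 1 was the lowest of the case libraries and still above every control library. *MT-ND1* (chrM:3307-4262), which lines the quinone site, was at 1178, 1191 and 1286 FPKM and at 1487, 1902 and 1683 FPKM, a log2 fold change of 0.54 (SE 0.09, limma adjusted p = 0.0159). Corrected for gene length, *MT-ND4* and *MT-ND1* had log2 fold changes of 0.45 and 0.37 and did not pass (limma adjusted p = 0.0547 and 0.0663).

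*MT-ND6* (chrM:14149-14673, minus strand) is the only mRNA encoded in the opposite orientation and comes from the light-strand promoter. It was at 429, 443 and 637 FPKM in the control group and at 706, 803 and 697 FPKM in the case group. Control replicate 3 stood apart from the other control libraries and was nearest to the case group, and the log2 fold change was 0.65 (SE 0.15, limma adjusted p = 0.0309). It did not pass with TPM scaling or when gene length was corrected for. The strandedness of the libraries is not given in the sources used here, so reads of *MT-ND6* and of RNA from the opposite strand cannot be told apart.

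The other complex I mRNAs did not pass. *MT-ND3* (chrM:10059-10404), which carries a loop that switches with the state of the enzyme, was at 2433, 2237 and 3032 FPKM in the control group and at 3748, 2635 and 2838 FPKM in the case group, and the groups overlapped (log2 fold change 0.33, 95% interval -0.07 to 0.74, limma adjusted p = 0.225). *MT-ND5* (chrM:12337-14148), the pumping subunit at the far end of the membrane arm, was at 495, 523 and 510 FPKM and at 441, 686 and 483 FPKM. The control libraries were close together, and the case libraries fell on both sides of them (log2 fold change 0.13, 95% interval -0.19 to 0.44, limma adjusted p = 0.560). *MT-ND4L* (chrM:10470-10766) was at 549, 466 and 602 FPKM and at 529, 637 and 411 FPKM, a log2 fold change of 0.03 (95% interval -0.35 to 0.40, limma adjusted p = 0.930).

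*MT-ND4L* is carried on the same bicistronic mRNA as *MT-ND4*, which was upregulated. The genes overlap by 7 bases, shown here in capitals at the end of *MT-ND4L* (GRCh38, chrM:10707-10766, plus strand), a much shorter overlap than that of *MT-ATP8* and *MT-ATP6*.
MT-ND4L: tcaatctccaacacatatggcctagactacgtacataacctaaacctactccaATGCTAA
The capitals begin with the start codon of *MT-ND4*. Per length, the control mean was 539 ± 68.6 FPKM for *MT-ND4L* and 1560 ± 34.2 FPKM for *MT-ND4* (SD, n = 3). Here too, fragments that reach the shared bases belong to both genes, and how they were counted is not given. Their effect on the level of *MT-ND4L* was not tested.

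For complex III, *MT-CYB* (chrM:14747-15887), which encodes cytochrome b, was at 1264, 1258 and 1255 FPKM in the control group and at 1599, 1862 and 1583 FPKM in the case group. The control values were the closest together of any encoded transcript, with an SD of 4.29 FPKM, and the log2 fold change was 0.49 (SE 0.08, limma adjusted p = 0.0155). Corrected for gene length, it was 0.32 and did not pass (limma adjusted p = 0.0696).

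The rRNAs are the RNA core of the mitochondrial ribosome. *MT-RNR1*, the small-subunit 12S rRNA (chrM:648-1601), was at 1068, 995 and 1315 FPKM in the control group and at 1669, 1748 and 1958 FPKM in the case group, a log2 fold change of 0.75 (SE 0.12, limma adjusted p = 0.0140). *MT-RNR2*, the large-subunit 16S rRNA (chrM:1671-3229), was the most abundant gene in every library, at 6864, 7063 and 7569 FPKM and at 8888, 8566 and 8305 FPKM. Its groups did not overlap, but it missed the threshold (log2 fold change 0.34, 95% interval 0.12 to 0.56, limma adjusted p = 0.0535), which it passed in 4 of 14 alternatives that used all 6 libraries. *MT-RNR2* was 6.43, 7.10 and 5.76 times *MT-RNR1* in the control libraries and 5.32, 4.90 and 4.24 times in the case libraries, so the ratio was lower in every case library. Whether polyadenylated RNA was selected or ribosomal RNA was depleted is not given in the sources used here, and its part in the rRNA levels was not tested.

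*MT-TP*, the proline tRNA (chrM:15956-16023, minus strand), was at 1424, 1465 and 1473 FPKM in the control group and at 1342, 1414 and 1302 FPKM in the case group. As deposited, the values did not overlap and the case group was lower. After scaling they overlapped, with a log2 fold change of -0.03 (95% interval -0.20 to 0.15, limma adjusted p = 0.830), and under quantile normalization and TPM scaling the log2 fold changes were -0.26 and -0.23 and passed the threshold (limma adjusted p of 0.0415 and 0.0390). Without known strandedness, reads of this tRNA gene and of RNA from the opposite strand cannot be told apart, so its level is uncertain.

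The order of the encoded transcripts by level changed little. *MT-RNR2*, *MT-CO2*, *MT-CO3*, *MT-CO1*, *MT-ND3* and *MT-ND4* were ranks 1 to 6 in both groups. Neighbours in the middle of the order were not separated by their spread in the control group: *MT-CYB* (1259 ± 4.29 FPKM), *MT-ND1* (1219 ± 59.0 FPKM), *MT-ATP6* (1200 ± 44.1 FPKM) and *MT-RNR1* (1126 ± 167 FPKM; SD, n = 3 for each). *MT-RNR1* moved from rank 12 in the control group to rank 8 in the case group, and *MT-TP* from rank 7 to rank 12.

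Within the mitochondrial mRNAs, the share of each gene in their summed FPKM was compared as a description, with no test. *MT-ND5* held 2.07%, 2.28% and 2.21% in control replicates 1, 2 and 3 and 1.43%, 2.03% and 1.49% in the case libraries. *MT-ND4L* held 2.30%, 2.03% and 2.61% and 1.71%, 1.89% and 1.27%, respectively. Both shares were lower in every case library, and as shares of reads they were also lower without overlap. *MT-ATP6* held 5.24%, 5.15% and 5.08% in the control libraries and 5.31%, 5.41% and 5.81% in the case libraries, higher without overlap in FPKM and in reads. *MT-CO3* was higher without overlap in FPKM only, and *MT-CO1* was lower without overlap in reads only, with 24.7% ± 0.77 of the mRNA reads of control libraries and 23.2% ± 0.53 of those of case libraries (SD, n = 3). The remaining shares overlapped between the groups.

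**Figure D2:**
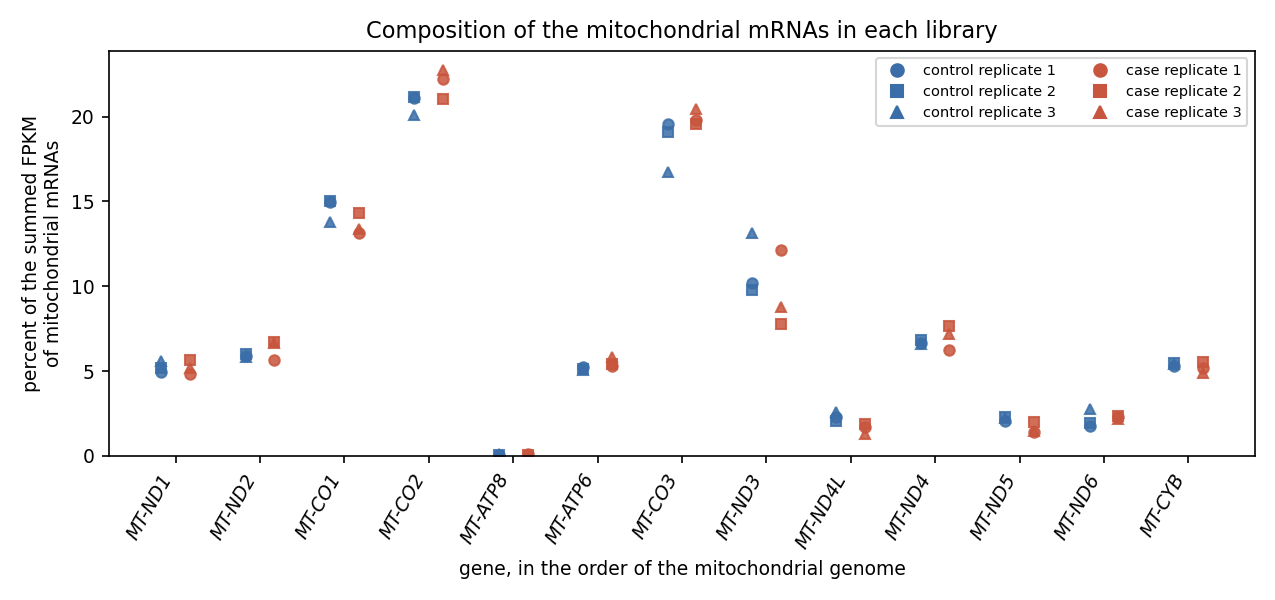
Percent of the summed FPKM of the 13 mitochondrial mRNAs held by each gene (linear axis from 0), with 1 point per library, control in blue and case in red. *MT-CO2* and *MT-CO3* hold the largest shares, and the case points of *MT-ND4L* and *MT-ND5* lie below their control points.

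Nuclear copies of mitochondrial genes can share reads with the genome itself. Of 35 such pseudogenes in the table, 3 reached a mean of 0.5 FPKM. *MTATP6P1* was at 101, 95.9 and 118 FPKM in the control group and at 172, 142 and 143 FPKM in the case group, with the case group higher without overlap (log2 fold change 0.62, SE 0.12, limma adjusted p = 0.0218). *MTND2P28* had a control mean of 84.3 ± 4.63 FPKM and a case mean of 98.4 ± 28.1 FPKM, and *MTCO1P12* 11.5 ± 1.68 FPKM and 11.7 ± 1.89 FPKM (SD, n = 3), neither of which passed. Reads of these copies and of *MT-ATP6*, *MT-ND2* and *MT-CO1* may have been split between the rows, so all of these levels are uncertain to that extent.

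The machinery genes gave other counts. Of the 27 tested, 1 was upregulated (*SUPV3L1*) and 2 were downregulated (*POLG* and *FASTKD3*), against 7.34% and 5.84% of all tested genes, and 24 did not pass. At an unadjusted p under 0.05, 5 were higher and 4 were lower, shares near the 16.8% and 16.2% of all tested genes. The values of 4 genes (*TFB2M*, *POLG2*, *SSBP1* and *SUPV3L1*) were higher and those of 5 genes (*POLG*, *FASTKD3*, *ELAC2*, *PNPT1* and *GABPA*) were lower without overlap, against 19.5% and 20.4% of all tested genes. The median log2 fold change was 0.06, with a range from -0.39 to 0.56. In case replicates 1, 2 and 3, the median deviation from the control mean was 0.47, 0.59 and 0.48 on the log2 scale for the encoded transcripts and 0.02, 0.02 and 0.08 for the machinery genes. Without control replicate 1, 2 or 3 or case replicate 3 no machinery gene passed. Over all tested genes, those fits gave 73, 56, 58 and 106 upregulated and 28, 16, 18 and 60 downregulated genes, in the same order. Leaving out case replicate 1 gave 3 upregulated and 4 downregulated machinery genes, with 1212 and 1061 over all tested genes. The sign of the machinery median depended on the scaling, since it was -0.016 with no scaling beyond FPKM, -0.14 as TPM and -0.10 relative to the nuclear FPKM sum, where the median of all tested genes was -0.08, -0.19 and -0.15.

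**Figure D3:**
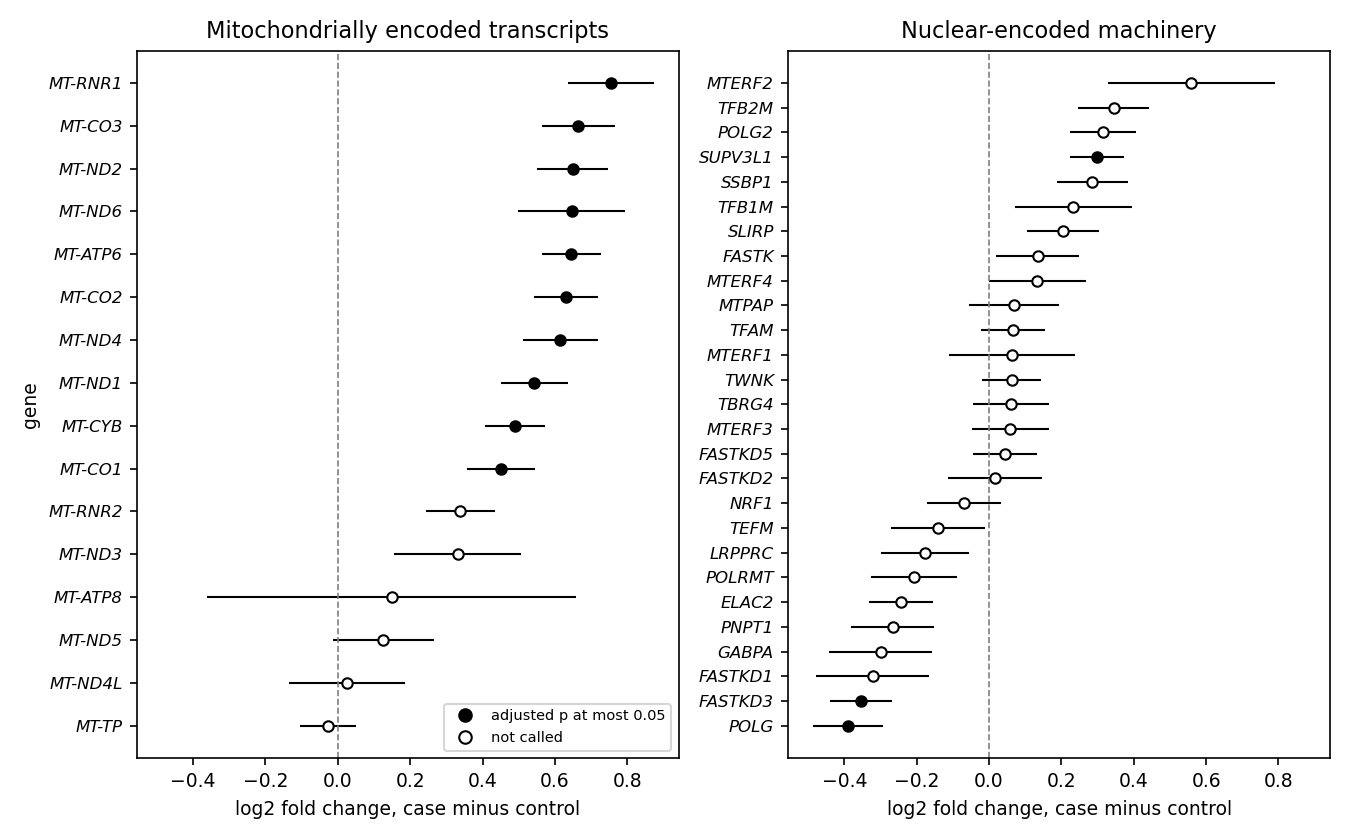
Log2 fold change (case minus control, limma) of the 16 mitochondrially encoded transcripts (left) and the 27 machinery genes (right), with bars for 1 SE and filled points for an adjusted p of at most 0.05. The 10 filled points on the left are all above 0, and on the right *SUPV3L1* lies above 0 and *FASTKD3* and *POLG* below; the signs of small machinery changes depend on the scaling.

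None of the 9 transcription genes passed. *TFAM*, which packages mitochondrial DNA and bends its promoters, was at 10.4, 11.7 and 11.1 FPKM in the control group and at 9.85, 11.5 and 11.7 FPKM in the case group, a log2 fold change of 0.07 (95% interval -0.14 to 0.27, limma adjusted p = 0.630). *POLRMT*, the mitochondrial RNA polymerase and the most abundant gene of this role, was at 44.4, 43.6 and 43.8 FPKM and at 42.1, 34.7 and 32.1 FPKM. Case replicate 1 was close to the control libraries and the other case libraries were lower, and after scaling the groups overlapped (log2 fold change -0.21, SE 0.12, limma adjusted p = 0.259), although it passed under TPM scaling and relative to the nuclear FPKM sum. *TFB2M*, the factor that melts the promoter with the polymerase, was at 23.9, 20.7 and 21.0 FPKM and at 22.9, 27.8 and 28.5 FPKM. Its scaled values were higher in the case group without overlap, and it missed the threshold (log2 fold change 0.34, SE 0.10, limma adjusted p = 0.0559). *MTERF2*, of the family of mitochondrial termination factors, had the highest log2 fold change of the machinery, 0.56, with an SE of 0.23 and 69 to 134 reads per library (limma adjusted p = 0.136), and its groups overlapped. *MTERF2* and the genes named above for not overlapping were singled out after their values were seen.

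Of the 4 replication genes, *POLG* was downregulated. *POLG*, the catalytic subunit of the mitochondrial DNA polymerase (chr15:89305198-89334861, minus strand), was at 19.3, 21.4 and 18.7 FPKM in the control group and at 15.0, 14.9 and 13.1 FPKM in the case group. Every case library was below every control library, with a log2 fold change of -0.39 (SE 0.10, limma adjusted p = 0.0389). Corrected for gene length, the log2 fold change was -0.26 and did not pass. That correction used the annotated 8280 bases, where 5980 were recovered from the FPKM values. *POLG2*, its accessory subunit, was at 4.40, 4.38 and 4.28 FPKM and at 4.61, 5.63 and 5.28 FPKM, in the other direction (log2 fold change 0.31, SE 0.09, limma adjusted p = 0.0572). *SSBP1*, the single-strand binding protein and the most abundant gene of this role, was at 32.8, 31.3 and 33.2 FPKM and at 36.3, 34.3 and 42.3 FPKM (log2 fold change 0.29, SE 0.10, limma adjusted p = 0.0877). The helicase gene *TWNK* had a log2 fold change of 0.06 (SE 0.08, limma adjusted p = 0.635).

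Of the 10 genes of RNA processing and stability, *FASTKD3* was downregulated. *FASTKD3* (chr5:7859159-7869037, minus strand) belongs to the FASTK family of mitochondrial RNA-binding proteins and was at 6.50, 5.96 and 6.34 FPKM in the control group and at 4.59, 4.71 and 4.58 FPKM in the case group. Both groups were tight and did not overlap, with a log2 fold change of -0.35 (SE 0.09, limma adjusted p = 0.0359). It did not pass with a replicate block (limma adjusted p = 0.0587), by voom on recovered reads or with quantile normalization (limma adjusted p = 0.0507 in both). *TBRG4*, also known as FASTKD4 and the most abundant gene of this role, had a control mean of 54.7 ± 2.69 FPKM and a case mean of 54.3 ± 5.45 FPKM (SD, n = 3).

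*LRPPRC*, which with *SLIRP* stabilizes mitochondrial mRNAs and holds them for polyadenylation, was at 32.4, 33.8 and 32.2 FPKM in the control group and at 21.8, 31.4 and 30.3 FPKM in the case group. Case replicate 1 was far below the other libraries, and the groups overlapped after scaling (log2 fold change -0.18, 95% interval -0.46 to 0.10, limma adjusted p = 0.339). Corrected for gene length, its log2 fold change was 0.14. That correction used the annotated 34689 bases, where 9760 were recovered from the FPKM values, so this value is uncertain. *SLIRP* had a log2 fold change of 0.20 (SE 0.10, limma adjusted p = 0.191). The tRNA 3′ end nuclease gene *ELAC2* was at 47.6, 49.0 and 46.9 FPKM and at 41.0, 38.6 and 35.5 FPKM; it did not pass (log2 fold change -0.24, SE 0.09, limma adjusted p = 0.1001) and passed with no scaling beyond FPKM, quantile normalization, TPM and the nuclear FPKM sum.

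The 2 RNA decay genes encode the partners of the mitochondrial degradosome. *SUPV3L1*, its helicase (chr10:69180234-69209099, plus strand), was at 12.6, 12.8 and 12.9 FPKM in the control group and at 13.9, 15.3 and 15.6 FPKM in the case group, a log2 fold change of 0.30 (SE 0.07, limma adjusted p = 0.0392). It did not pass with a replicate block (limma adjusted p = 0.0660), without further scaling or as TPM (limma adjusted p = 0.0950 and 0.416). *PNPT1*, the exoribonuclease of the pair, was at 15.8, 15.9 and 15.3 FPKM and at 9.95, 14.1 and 13.4 FPKM, lower in every case library and lowest in replicate 1 (log2 fold change -0.27, SE 0.12, limma adjusted p = 0.151). The fitted values of the pair thus lay on opposite sides of 0, and the difference between them was not tested.

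The nuclear regulators are transcription factors that bind the promoters of many mitochondrial protein genes. *NRF1* was at 5.88, 5.56 and 5.66 FPKM in the control group and at 5.28, 5.65 and 4.58 FPKM in the case group (log2 fold change -0.07, 95% interval -0.30 to 0.17, limma adjusted p = 0.678). *GABPA*, the DNA-binding subunit of NRF2/GABP, was at 6.87, 7.47 and 7.13 FPKM and at 4.20, 6.57 and 6.01 FPKM, lower without overlap and lowest in case replicate 1 (log2 fold change -0.30, SE 0.14, limma adjusted p = 0.184). Case replicate 1 was the lowest library for *LRPPRC*, *PNPT1* and *GABPA* alike.

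**Figure D4:**
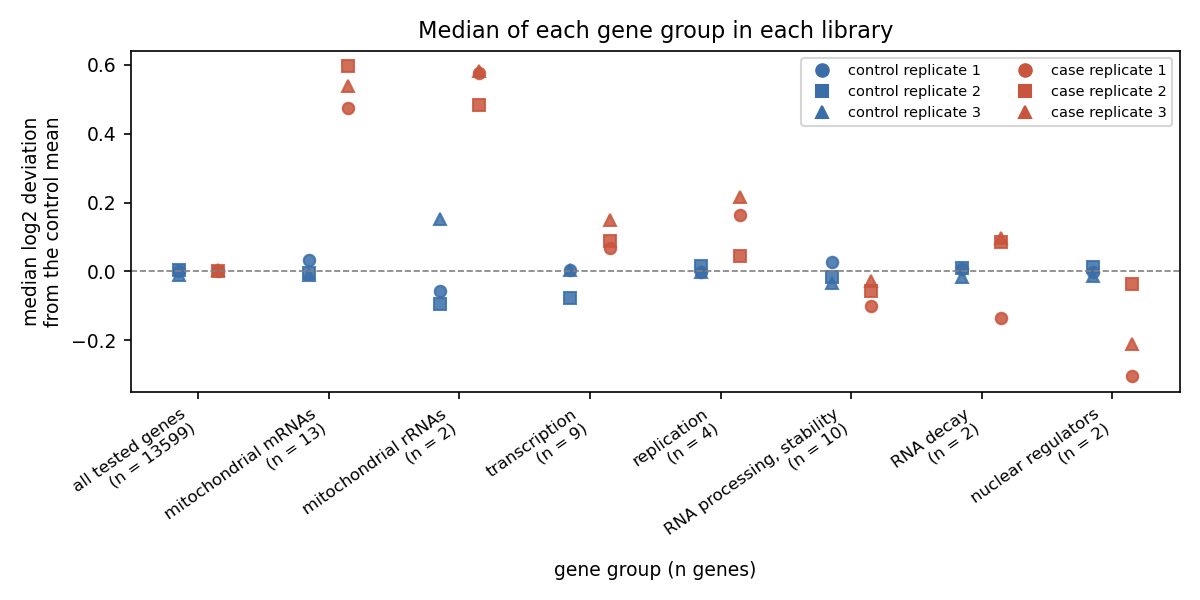
Median log2 deviation from the control mean of each gene group in each library, after scaling, with 1 point per library (control blue, case red) and the number of genes under each group. The case points of the mitochondrial mRNAs and rRNAs lie at 0.47 or above, the machinery roles lie between -0.30 and 0.22, and the medians of all tested genes are at 0.

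The promoters of the machinery genes that passed the test are shown with that of *TFAM* because *NRF1* and *GABPA* are known regulators of this machinery. The sequences are from RefSeq (GRCh38.p14), run 5′ to 3′ on the strand of the gene and span 250 bases before to 50 bases after the start. Capitals mark matches on either strand to the NRF1 core GCGCANGCG or the ETS core CCGGAAG, which GABPA binds. These are *POLG* (chr15:89334775-89335074, minus strand), *FASTKD3* (chr5:7868982-7869281, minus strand), *SUPV3L1* (chr10:69179984-69180283, plus strand) and *TFAM* (chr10:58385160-58385459, plus strand).
POLG: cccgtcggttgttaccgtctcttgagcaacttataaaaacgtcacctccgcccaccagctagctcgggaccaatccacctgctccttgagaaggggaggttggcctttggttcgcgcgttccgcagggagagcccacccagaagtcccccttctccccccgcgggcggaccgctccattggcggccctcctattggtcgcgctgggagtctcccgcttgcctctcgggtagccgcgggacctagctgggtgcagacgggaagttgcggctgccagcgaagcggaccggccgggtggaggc
FASTKD3: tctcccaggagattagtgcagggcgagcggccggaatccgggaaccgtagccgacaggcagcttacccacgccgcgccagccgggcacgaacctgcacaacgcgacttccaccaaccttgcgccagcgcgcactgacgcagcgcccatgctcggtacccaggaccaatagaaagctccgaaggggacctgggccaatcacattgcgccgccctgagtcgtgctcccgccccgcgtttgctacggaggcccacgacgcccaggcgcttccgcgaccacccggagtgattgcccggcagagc
SUPV3L1: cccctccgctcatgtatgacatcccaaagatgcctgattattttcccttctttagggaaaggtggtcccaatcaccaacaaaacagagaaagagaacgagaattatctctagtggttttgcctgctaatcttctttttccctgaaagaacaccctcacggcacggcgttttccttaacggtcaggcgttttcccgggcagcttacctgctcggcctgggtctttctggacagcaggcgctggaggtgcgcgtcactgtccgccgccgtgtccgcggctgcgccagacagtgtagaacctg
TFAM: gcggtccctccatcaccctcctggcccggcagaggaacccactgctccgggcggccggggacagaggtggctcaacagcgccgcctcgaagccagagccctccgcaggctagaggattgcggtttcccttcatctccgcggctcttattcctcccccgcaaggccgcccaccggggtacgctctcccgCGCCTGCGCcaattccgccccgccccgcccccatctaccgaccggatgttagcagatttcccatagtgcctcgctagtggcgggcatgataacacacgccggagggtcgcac
*TFAM* holds 1 match to the NRF1 core, which begins at position -62 relative to the start. These letters are not in the windows of the other 3 genes. In the RefSeq table, 23 machinery genes had an entry, with 26 promoters in all, and *FASTKD5*, *MTERF3*, *NRF1* and *TWNK* had none. The NRF1 core was in 6 of the 26 (23.1%), against 7.52% of all 35093 promoters and 13.2% of the 14059 promoters of tested genes. The ETS core was in 14 of the 26 (53.8%), against 10.3% and 17.7%, respectively. Some genes have several promoters in the table, 3 for *SSBP1* and 2 for *SLIRP*, each with an ETS match. At least 1 of the motifs, whose ends can share a base, was in 17 of the 26 (65.4%), against 16.3% of all promoters and 28.0% of those of tested genes. A match describes the sequence and is not evidence that a factor was bound in these cells.

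Other genes of mitochondrial gene expression were examined in lists that overlap none of the above. Of 27 genes of mitochondrial RNA maturation and decay, 2 were upregulated and none was downregulated, near the 7.34% and 5.84% of all tested genes, and the median log2 fold change was 0.14. Both were 2′-O-methyltransferases of the 16S rRNA. *MRM3* was at 8.13, 7.97 and 8.75 FPKM in the control group and at 10.9, 9.75 and 11.6 FPKM in the case group (log2 fold change 0.45, SE 0.10, limma adjusted p = 0.0306), and *MRM2* was at 17.2, 17.4 and 16.3 FPKM and at 18.1, 22.3 and 21.2 FPKM (log2 fold change 0.34, SE 0.09, limma adjusted p = 0.0377). Every case library was above every control library in both. At an unadjusted p under 0.05, 8 of the 27 were higher and none was lower, against 16.8% and 16.2% of all tested genes.

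Of 14 mitochondrial translation factors, 1 was upregulated and none was downregulated, near the 7.34% and 5.84% of all tested genes, with a median of 0.10. At an unadjusted p under 0.05, 5 of the 14 were higher and none was lower, against 16.8% and 16.2% of all tested genes. The upregulated gene was *MTRFR*, a factor that rescues stalled mitochondrial ribosomes, at 5.15, 4.89 and 4.84 FPKM in the control group and at 5.48, 6.19 and 5.97 FPKM in the case group (log2 fold change 0.32, SE 0.08, limma adjusted p = 0.0470). Of 18 genes of mitochondrial DNA maintenance and nucleotide supply, none passed in either direction, with 3 higher and 2 lower at an unadjusted p under 0.05 by limma (16.8% and 16.2% of all tested genes) and a median of -0.06.

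Of 11 tested regulators of mitochondrial biogenesis, 1 was upregulated and 1 was downregulated, against 7.34% and 5.84% of all tested genes, and the median was -0.10. At an unadjusted p under 0.05, 1 was higher and 4 were lower, against 16.8% and 16.2% of all tested genes, and 2 were higher and 4 were lower without overlap, against 19.5% and 20.4%. The upregulated regulator was *MYC*, a growth-related transcription factor, at 52.7, 48.9 and 53.2 FPKM in the control group and at 72.8, 63.3 and 65.3 FPKM in the case group (log2 fold change 0.45, SE 0.10, limma adjusted p = 0.0245). The downregulated gene was *HCFC1*, a cofactor of chromatin and transcription, at 18.99, 19.2 and 20.9 FPKM and at 13.4, 13.7 and 10.7 FPKM (log2 fold change -0.57, SE 0.11, limma adjusted p = 0.0213). Neither gene overlapped between the groups. *MRM2*, *MRM3*, *MTRFR*, *MYC*, *HCFC1*, *MTATP6P1*, *VIM* and *CDH1* each fell short of the threshold when any control library or case replicate 3 was left out. *MRM2*, *MRM3* and *MTRFR* also did so with TPM scaling, *MRM2* and *MTRFR* with a replicate block (limma adjusted p = 0.0555 and 0.0804), and *MRM2* and *HCFC1* when gene length was corrected for (limma adjusted p = 0.156 and 0.0583).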

How the data were processed

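The authors filtered the reads, aligned them to GRCh38.p13 with HISAT2 2.1.0, counted them on genes with HTSeq 0.6.0 (versions from the submitters' processing notes) and deposited FPKM values per library. Symbols and positions were matched by Ensembl identifier for 29063 of 29483 genes. Whole reads were recovered from the FPKM values for all 27922 genes above 0, 12598 at the annotated exon length and 15324 at another whole length (tolerance 0.01 reads). FPKM were divided by median-of-ratios factors and transformed to log2 after 0.1 was added, so that changes of low genes are understated. Genes with a mean of at least 0.5 FPKM were tested in R 4.3.3 with limma 3.58.1 (intensity trend, no covariates, Benjamini-Hochberg). The procedure was also run on simulated reads with the same relative spread for all genes and no shift by gene length or batch. That run does not test the dependence on scaling and length described here. The authors tested counts with DESeq2, and their fold changes were not used. Named were all encoded mRNAs and rRNAs, members or listed genes past the threshold, the most abundant gene of each role and the known regulators. Some other members, such as *TWNK*, *POLG2*, *SLIRP* and *ELAC2*, were named outside this rule. Members and lists were chosen with earlier results of these data known. Alternatives were other pseudocounts, filters, scalings, models, a replicate block, a length correction and leaving out each library. The length correction used annotated exon lengths, also for the genes whose reads were whole only at another length.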

Additional observations from a re-analysis of the deposited data

How the results depend on the processing

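Same-numbered libraries had correlations of 0.06, 0.10 and -0.05 between their deviations from the group means. The highest correlation was 0.12, between control replicate 3 and case replicate 1. With so few libraries per group, these values do not decide whether libraries were paired. With a replicate block, 9 encoded transcripts were upregulated, the machinery had 0 upregulated and 1 downregulated, and all tested genes had 848 and 762. The block with the length correction gave 4 encoded, 0 and 1 machinery genes and, over all genes, 606 upregulated and 398 downregulated; the length correction alone gave 5 encoded and 1 downregulated machinery gene, and both gave an encoded median of 0.34. Without the filter the counts were 329 and 191 over all genes, 0 encoded and 0 and 0 machinery genes. With unscaled FPKM, TPM and the nuclear FPKM sum, upregulated genes numbered 662, 383 and 443, and downregulated genes 1124, 2387 and 1554. The encoded medians were then 0.44, 0.32 and 0.36 and the machinery medians -0.016, -0.14 and -0.10. Each scaling gave 0 upregulated machinery genes, and 3, 4 and 4 were downregulated in the same order. TPM and quantile normalization each gave 1 downregulated encoded transcript, *MT-TP*. Quantile normalization gave 3 upregulated encoded transcripts and medians of 0.048 (encoded) and 0.022 (machinery); it gives the highest-ranked genes of every library equal values by construction. Without the intensity trend the counts were 436 and 416 over all genes and 0 and 0 machinery genes. By voom on recovered reads 1301 genes were upregulated and 1512 downregulated, with 11 encoded and 2 and 1 machinery genes. A mean of at least 1 FPKM gave 2 upregulated machinery genes, with 1126 upregulated and 914 downregulated among the 11663 genes then tested. The cause of these changes was not tested otherwise. Leaving out each library gave 56 to 1797 upregulated and 16 to 1651 downregulated genes, 0 to 11 upregulated encoded transcripts, 0 to 3 upregulated and 0 to 4 downregulated machinery genes, and medians of 0.47 to 0.57 (encoded) and 0.029 to 0.060 (machinery). Of the single-gene results over all alternatives, 833 stayed on their side of the threshold, 166 lost it and 21 gained it, and no call reversed. The encoded share of the FPKM sum was higher in the case group by 2.55 percentage points, or 2.20 for the mRNAs only. *MT-ATP8* (22 to 93 reads per library) and *MTERF2* (69 to 134) had the fewest reads, and the source of their spread was not tested. The share differences of *MT-ND4L* and *MT-ND5* were -0.69 and -0.54 percentage points in FPKM and -0.23 and -1.07 in reads.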
